A study of Mus musculus with 3 samples.

Results

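A total of 6562 peaks of the transcription factor PATZ1 at day 0 were at least 700 bp wide and lay on chromosomes 1 to 19, out of 312265 day 0 peaks there. The rule used the width of each peak in the deposited list, so these regions were chosen by their own measured values. The whole series holds 1167521 peaks, 315100 at day 0 and 852421 at day 5. Both lists come from 10T1/2, a mouse mesenchymal cell line that can be turned into fat cells. Day 0 is the start of adipogenic differentiation and day 5 is a later stage. Each day has 1 PATZ1 library, and 1 input library, sonicated chromatin taken without antibody, is labelled for both days. Both immunoprecipitations used 1 PATZ1 antibody, per the labels' protocols. No genotype, transgene or drug is given for any sample. The labels do not say how cells were differentiated, and 1 line was used.

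PATZ1 is a zinc-finger protein that carries a BTB domain, through which such factors pair with each other and recruit co-regulators, and an AT-hook, which contacts the minor groove of DNA. In chromatin immunoprecipitation a protein bound at 1 short motif usually gives a narrow pile of reads around it. A wide called region can hold a very tall pile with long shoulders or several lower piles joined into 1 interval. The place of the highest point, the summit, and the height of the pile describe which of these forms a region has.

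Positions are in mm9. With 1 library per day nothing here has a replicate check, so no test was made and no p-value is given for any comparison. Shares have 95% Wilson intervals, which treat regions as independent and cover counting error only, since reads without molecular identifiers need not be separate molecules. The narrowest peak is 228 bp in the day 0 list and 56 bp in the day 5 list. It was taken as a sign of the length to which reads were extended, which was not tested. The day 5 list has 0 peaks of at least 700 bp, and its widest is 518 bp. Read extension and width cannot be told apart here, so widths were not compared between days and day 5 peaks were counted across the day 0 intervals. Library totals were not used.

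Most wide peaks were low. The number of reads piled up at the summit, solved from the authors' fold and −log10 p, ran from 5 to 314 with a median of 10 and quartiles of 8 and 13. The control background at the same place, solved likewise, had a median of 2.91 reads, and the authors' fold over background had a median of 2.71. The background had a floor: its lowest value and its 5th percentile were both 1.95 reads, in wide and in other peaks. The other 305703 day 0 peaks on these chromosomes had a median of 7 reads, a background of 2.69 and a fold of 2.28. Widths of the 6562 regions had a median of 815 bp and quartiles of 746 and 940 bp, and the widest spanned 3233 bp. Together they covered 5.79 Mb, which is 0.234% of chromosomes 1 to 19.

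Strong enrichment was found in a minority of them. A q of at most 0.05 was held by 1442 wide peaks (22.0%), and 2.09% of all day 0 peaks on these chromosomes had one. A −log10 q of at least 5 was held by 363 (5.53%), beside 0.257% of all day 0 peaks. At the other end stood 3234 wide peaks (49.3%) whose −log10 q was under 0.5 and whose median height was 9 reads. Width and strength come from the same list, so these shares describe the wide peaks and are not read as support for anything. Strong peaks were not all wide: 363 of the 801 with a −log10 q of at least 5 (45.3%, interval 41.9 to 48.8) and 87 of the 142 with at least 20 (61.3%, 53.1 to 68.9) reached 700 bp.

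Wider classes were higher. Peaks of 228 to 299 bp had a median of 7 reads, those of 600 to 699 bp 9 reads, those of 700 to 799 bp 9 reads, those of 1000 to 1499 bp 12 reads and the 139 of at least 1500 bp 17 reads. Of those 139, 46 (33.1%) had a −log10 q of at least 5, against 74 of the 2967 peaks of 700 to 799 bp (2.49%). Within the wide peaks, width and reads at the summit had a Spearman rho of 0.287 over 6562 regions of 1 library. Values just inside and just outside the limit were alike in height: the 380 peaks of 700 to 709 bp and the 428 of 690 to 699 bp both had a median of 9 reads over a background of 2.72. A −log10 q of at least 5 was found in 7 of the former and 10 of the latter. Another wide peak lay within 50 kb of 54.5% and 48.8% of them, and a day 5 peak overlapped 35.0% and 36.7%.

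**Figure D1:**
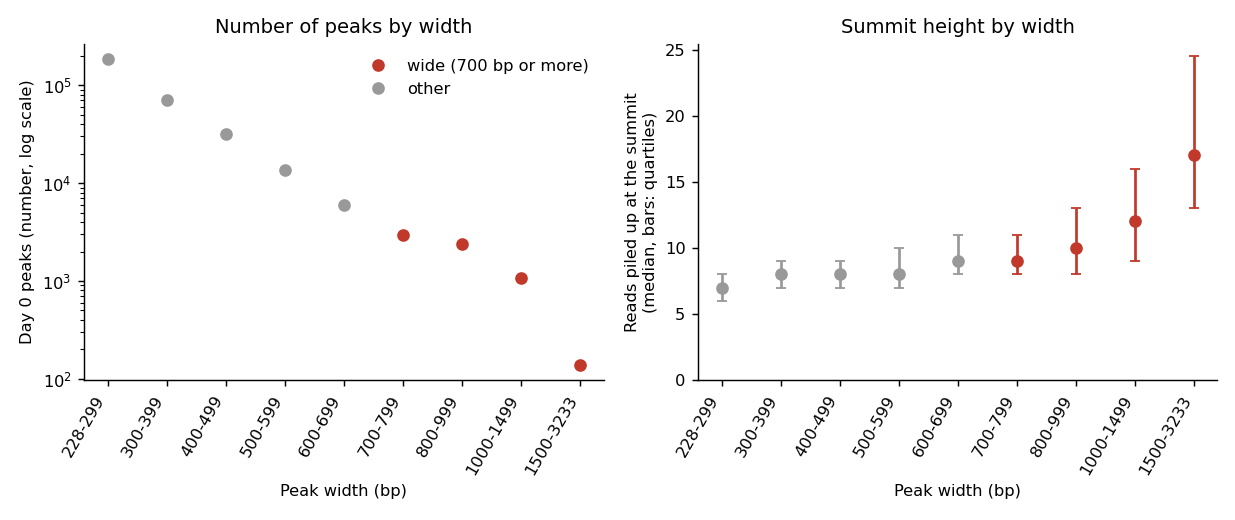
Left, number of day 0 peaks on chromosomes 1 to 19 in 9 classes of width (log scale). Right, reads piled up at the summit, with points for the median and bars for the quartiles. Numbers fall from 184283 peaks of 228 to 299 bp to 139 of at least 1500 bp, while the median height goes from 7 to 17 reads.

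The 10 widest regions were 2423 to 3233 bp long and moderately high, with 14 to 51 reads at the summit. The widest of all, chr15:101198584-101201816, held 23 reads over a background of 9.30, a fold of 2.33. Its −log10 q was 0.947, so the most extended region of the list missed a q of 0.05. The next, chr3:89323598-89326740, spanned 3143 bp with 15 reads over 3.63, and its summit lay 2722 bp from its start. By contrast, chr15:85404170-85406813, 2644 bp long, held 51 reads over 4.53 and had a −log10 q of 30.5. In 7 of the 10 the −log10 q was at least 5, and 4 of the 10 were on chromosome 15.

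The 10 wide peaks with the highest −log10 p had another form. They were 778 to 1574 bp long with 113 to 245 reads, and their summits lay between 28.7% and 55.8% of the way along the interval. The first, chr13:63801535-63802964, held 221 reads over a background of 3.31, with the summit at 54.7% of its length. Some stood beside another wide peak and some far from any. For chr3:103397308-103398636 the next wide peak was 822 bp away and for chr6:35272988-35273866 it was 1395 bp away. For chr16:14884773-14885586 it was 767516 bp away.

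Wide peaks were unevenly spread over the chromosomes. Chromosome 15 carried 1149 of them, 17.5% of the 6562, but 8.56% of all day 0 peaks. Of the day 0 peaks on chromosome 15, 4.30% (4.06 to 4.55) were wide, followed by 3.13% on chromosome 13 and 2.76% on chromosome 3. The share was 0.808% (0.675 to 0.967) on chromosome 1, 0.872% on chromosome 12 and 0.895% on chromosome 16. Chromosomes 3, 4, 13 and 15 together carried 3787 wide peaks, 57.7% of them, and 39.1% of all day 0 peaks. Over the 19 chromosomes the share of wide peaks went with the density of day 0 peaks per Mb (Spearman rho 0.846, Pearson r 0.886), and both quantities come from the same list. Chromosome 7 lay off this order, with 80.8 day 0 peaks per Mb and 2.45% of them wide. The control background moved with the chromosome too: chromosome 15 carried 8.82% of the wide peaks with a background over 2 and up to 3 reads and 29.6% of those with over 5 and up to 10. Its part in the uneven spread was not tested.

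Wide peaks lay closer to each other than other peaks lay to them. The gap from a wide peak to the nearest other wide peak had a median of 34751 bp, with quartiles of 9389 and 114036 bp. From the other day 0 peaks to the nearest wide peak it was 113590 bp, with quartiles of 31519 and 397614 bp. Another wide peak lay within 50 kb of 3818 wide peaks (58.2%, 57.0 to 59.4), while 33.7% of all day 0 peaks on these chromosomes had a wide peak that near. Within 1 kb the shares were 6.34% (5.78 to 6.96) for wide and 1.72% (1.67 to 1.76) for other peaks. Peaks just under the limit stood between: 49.0% (47.7 to 50.3) of those of 600 to 699 bp had a wide peak within 50 kb, and 30.0% of those of 228 to 299 bp did.

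The same difference was found inside each chromosome. In 19 of 19 chromosomes the median gap was shorter for wide than for other peaks, by a factor of 1.61 on chromosome 13 to 4.52 on chromosome 7. On chromosome 15 the medians were 14.2 kb for wide and 32.4 kb for other peaks, and on chromosome 1 they were 228.6 and 509.4 kb. On chromosome 7 another wide peak lay within 50 kb of 69.5% of wide peaks, against 37.9% for the others. With all chromosomes pooled, wide peaks also had nearer neighbours of any width. The median gap to the next day 0 peak was 711.5 bp against 1493 bp for other peaks. This gap was not taken by chromosome, and it shortened gradually with width. Its median was 1650 bp at 228 to 299 bp, 925 bp at 600 to 699 bp and 818 bp at 700 to 799 bp.

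**Figure D2:**
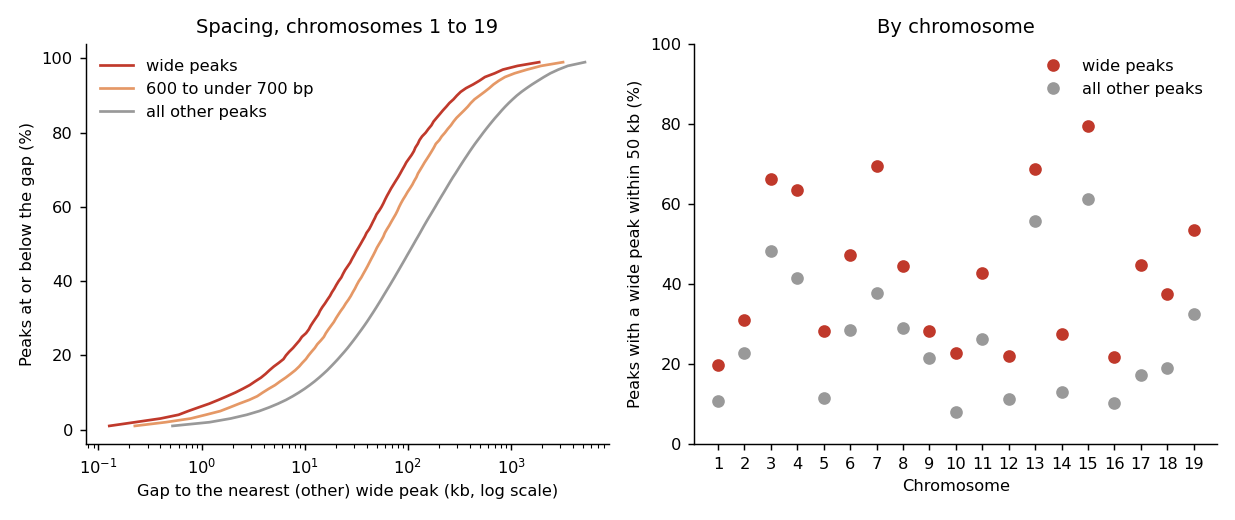
Left, share of peaks (y, percent) at or below a given gap to the nearest other wide peak (x, kb, log scale) for wide peaks, peaks of 600 to 699 bp and all other day 0 peaks. Right, share with a wide peak within 50 kb on each chromosome, where the wide peaks lie above the others in 19 of 19.

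Some neighbours were all but joined. The closest pair, chr15:80362226-80363095 and chr15:80363150-80363927, was 54 bp apart and held 12 and 14 reads at its summits. In the pair on chromosome 4, chr4:129190347-129191150 and chr4:129191206-129191919, 55 bp apart, the heights were 17 and 29 reads. Of the next 3 pairs, separated by 57 to 60 bp, 1 was on chromosome 3, 1 on chromosome 15 and 1 on chromosome 7. The shortest gap between any 2 day 0 peaks on these chromosomes was 52 bp, so such pairs sit just above the smallest separation in the list.

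Linked by gaps of at most 50 kb, the 6562 wide peaks formed 3945 groups. Of these, 2744 were single peaks, 671 were pairs, 366 had 3 to 4 members and 135 had 5 to 9. A further 29 groups had 10 or more members and held 427 wide peaks, 6.51% of all. They lay on chromosome 15 (15 groups), chromosome 3 (5), chromosome 13 (4), chromosome 6 (2) and chromosomes 4, 7 and 18 (1 each). Counted in fixed 1-Mb windows, chr15:78000001-79000000 and chr3:34000001-35000000 held 42 wide peaks each and chr15:79000001-80000000 held 39.

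The group with most members, chr15:79658428-80028538, had 27 wide peaks in 370.1 kb, among 177 day 0 peaks. Their heights ran from 10 to 30 reads with a median of 17 over a background of 4.96, and 1 of the 27 had a −log10 q of at least 5. A day 5 peak was listed at 11 of them, with at most 6 reads. A second group on the same chromosome, chr15:74223099-74623104, had 26 members with 9 to 23 reads, none with a −log10 q of at least 5, and a day 5 peak at 8. The group at chr15:78397685-78681365 was less even: its 23 members had a median of 15 reads but a highest value of 106. On chromosome 3, chr3:34099194-34412671 held 22 members of 6 to 14 reads over a background of 2.60. The most packed of these 5 groups was chr15:66580627-66731493, where 21 members lay in 150.9 kb and covered 13.1% of it.

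**Figure D3:**
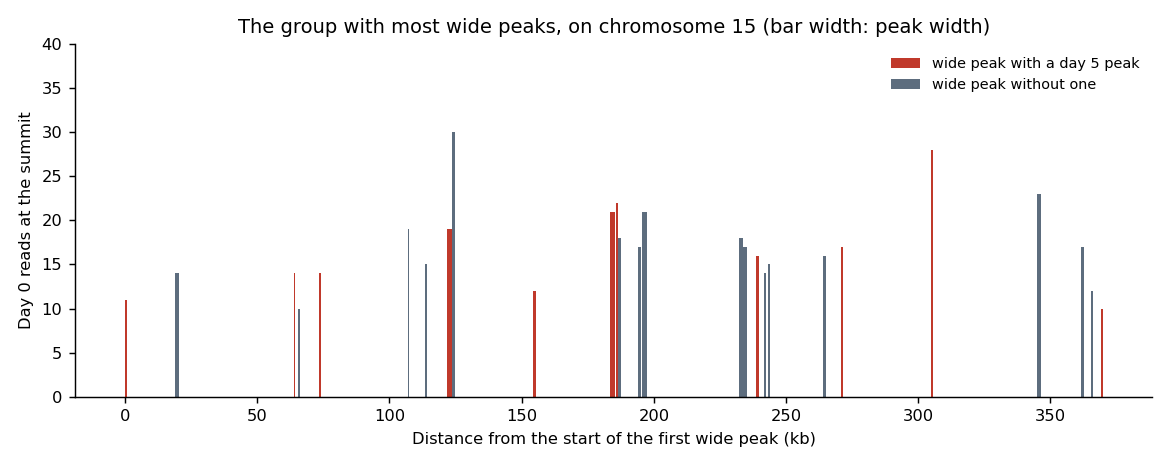
The 27 wide peaks of the group with most members, by distance from the first (x, kb) and reads at the day 0 summit (y). Each bar is as wide as its peak, and red bars mark the 11 peaks overlapped by a day 5 peak. Heights run from 10 to 30 reads, and peaks with and without a day 5 peak are mixed along the group.

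Inside wide peaks the summit was often off centre. It lay between 25% and 75% of the interval in 3872 wide peaks (59.0%, 57.8 to 60.2), while 76.5% of all day 0 peaks had it there. Peaks just under the limit were nearer to the wide ones. The share was 71.1% (69.9 to 72.2) at 600 to 699 bp. Among narrower classes it had no steady order, with 72.5% at 228 to 299 bp, 89.6% at 300 to 399 bp and 76.9% at 400 to 499 bp. At the limit it was 66.6% (62.0 to 70.9) for 690 to 699 bp and 63.7% (58.7 to 68.4) for 700 to 709 bp, with overlapping intervals. With the interval divided into 10 equal parts, parts 2, 3, 8 and 9 held 52.7% of the summits of wide peaks and 33.5% of those of peaks of 400 to 699 bp. Parts 5 and 6, in the middle, held 23.6% and 33.0%. Both sides were used about equally, with 51.5% of the summits of wide peaks on the side of the lower coordinate. In bp, 2640 wide peaks (40.2%, 39.1 to 41.4) had the summit 150 to 249 bp from the nearer edge. That range held the summit of 59.7% of peaks of 400 to 699 bp and of 17.7% of all other day 0 peaks. These shares depend on width itself, since a summit lies no farther from the nearer edge than the middle of its peak. The 184283 peaks of 228 to 299 bp are too narrow to have a summit in that range. In peaks of 400 to 499 bp the range takes in the middle of the peak. The distance had a median of 221 bp over all wide peaks, but it changed with width. Its median was 209 bp at 700 to 799 bp, 223 bp at 800 to 999 bp, 315 bp at 1000 to 1499 bp and 568 bp in regions of at least 1500 bp.

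Strong and weak wide peaks differed in this shape. Of the 3234 with a −log10 q below 0.5, 54.1% (52.3 to 55.8) had the summit between 25% and 75% of the interval. The share was 78.0% (73.4 to 81.9) in the 363 with a −log10 q of at least 5, and 87.4% in the 87 with at least 20. Narrower peaks of the same strength were more centred still, with 97.7% of 438. By width, the share was 63.8% at 700 to 799 bp, 54.4% at 800 to 999 bp, 54.5% at 1000 to 1499 bp and 69.1% (61.0 to 76.1) in the 139 regions of at least 1500 bp. Place and height of the summit come from the same pile of reads, so this too is a description.

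**Figure D4:**
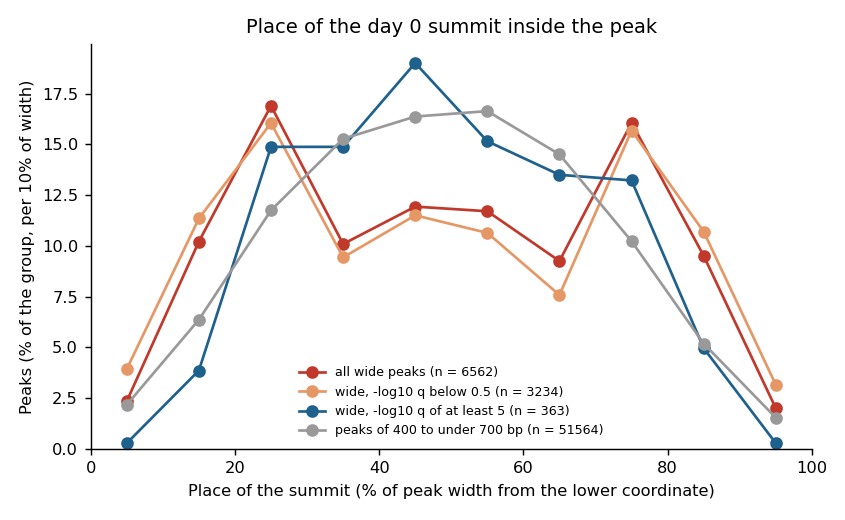
Share of peaks (y, percent per 10% of width) by the place of the summit along the peak (x, percent of width from the lower coordinate). All wide peaks and weak wide peaks have 1 crest on each side of the centre, at 16.9% and 16.1% for all wide peaks. Both groups also have a lower rise in the middle, up to 11.9% for all wide peaks and 11.5% for weak ones. Strong wide peaks and peaks of 400 to 699 bp have their crest in the middle.

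The day 5 list was not used to choose the regions. A day 5 peak overlapped 3087 of the 6562 wide peaks by at least 1 bp (47.0%, 45.8 to 48.3), beside 22.0% of all day 0 peaks on these chromosomes. In 2281 wide peaks there was 1 day 5 peak, in 669 there were 2, in 122 there were 3, in 14 there were 4 and in 1 there were 5. The share followed width at every step, from 18.0% at 228 to 299 bp through 38.6% at 600 to 699 bp and 42.0% at 700 to 799 bp to 66.2% (58.0 to 73.5) in regions of at least 1500 bp. A longer interval meets more day 5 peaks by its length, so the share was also taken per kb.

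Per length, wide peaks and the narrower classes had similar values. The wide peaks held 3752 day 5 summits, or 0.648 per kb, against 0.409 per kb in the 5 kb on each side with wide peaks left out. The ratio was 1.58 (exact interval 1.53 to 1.64). For peaks of 600 to 699 bp it was 1.61 (1.55 to 1.68) and for those of 228 to 299 bp 1.57 (1.55 to 1.59), each with peaks of its own class and wide peaks left out of the flanks. The intervals of these classes overlap that of the wide peaks. For all other day 0 peaks together the ratio was 1.68 (1.66 to 1.69), above that of the wide peaks, with 0.610 summits per kb inside and 0.364 beside them. Their flanks hold no day 0 peak of any width, while those of the wide peaks still hold narrower ones. The flanks of a single narrower class still hold peaks of the other narrower classes. None of these ratios are thus on the same footing, and overlap of their intervals does not show that they are equal. The density inside ranged from 0.590 to 0.676 per kb over the classes up to 1499 bp, and it was 0.524 per kb in the regions of at least 1500 bp, which held 132 day 5 summits. Over all of chromosomes 1 to 19 the day 5 list has 0.324 summits per kb.

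Around wide peaks, day 5 summits were about as dense 51 to 350 bp from the day 0 summit as within 50 bp of it. Peaks just under the limit shared this. Distances were counted on both sides of the summit and were not confined to the peak. The nearer edge of a wide peak lay at a median of 221 bp, so this range often reaches past it. Within 50 bp of the summit of wide peaks the density of day 5 summits was 0.625 per kb (0.566 to 0.688), and at 51 to 350 bp it was 0.610 (0.585 to 0.634). For peaks of 600 to 699 bp the values were 0.599 (0.539 to 0.664) and 0.613 (0.588 to 0.639). Around the other day 0 peaks it fell from 0.605 to 0.519 (0.516 to 0.523) over the same steps, and most of those peaks are too narrow to reach that far. At 351 to 550 bp it was 0.549 for wide and 0.442 for other peaks, and at 1051 to 2050 bp it was 0.425 and 0.403. A day 5 summit lay within 150 bp of the day 0 summit in 1150 wide peaks (17.5%, 16.6 to 18.5), beside 16.7% of all day 0 peaks, a share near the background.

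**Figure D5:**
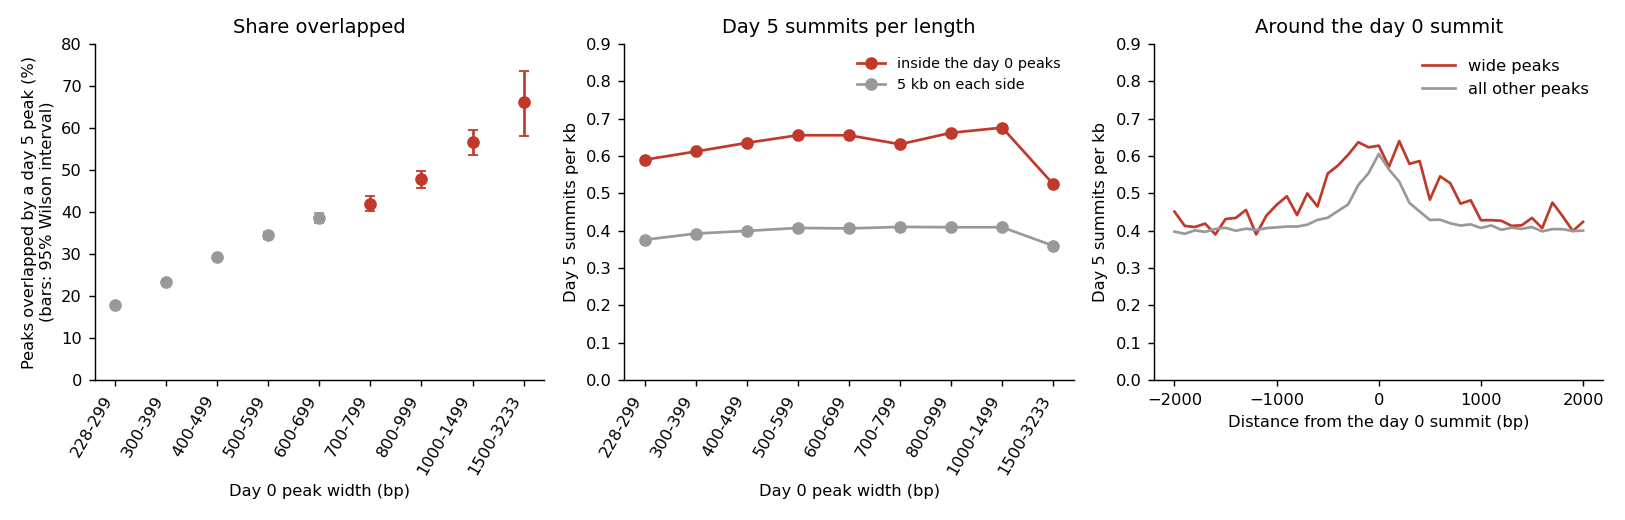
Left, share of day 0 peaks overlapped by a day 5 peak (y, percent, bars 95% Wilson intervals) by width, wide classes in red. Middle, day 5 summits per kb inside the peaks and in the 5 kb on each side. Right, day 5 summits per kb by distance from the day 0 summit (100-bp steps). The share goes from 18.0% in the narrowest class to 66.2% in the widest, while the density inside stays between 0.524 and 0.676 per kb.

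The share listed at day 5 showed no steady order with strength at day 0. The share of wide peaks with a day 5 peak was 46.2% (44.5 to 47.9) where the −log10 q was below 0.5 and 49.4% (39.2 to 59.7) where it was at least 20. Over all 6562, the day 0 reads and the number of day 5 peaks, not divided by length, had a Spearman rho of -0.019. The classes differ in length, with a median width of 791 bp in the weakest and 976 bp in the strongest. Per kb, day 5 summits inside were lower in the strongest class (0.546) than in the weakest (0.647). The highest density was 0.687, where −log10 q was from 0.5 and q above 0.05. Density in the flanks was lower too, 0.327 against 0.423. The ratios were 1.67 (1.22 to 2.25) and 1.53 (1.45 to 1.61). The median of the highest day 5 pile-up was 3 reads in the weakest class and 4 in the strongest, beside day 0 medians of 9 and 67 reads. Pile-ups were not taken to be on 1 scale across the days, since the narrowest peaks differ and reads may have been extended to different lengths.

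The day 5 peaks found there were as high as the rest. The 4046 day 5 peaks that touched a wide peak, 0.505% of the 801169 on these chromosomes, had a median of 3 reads and a −log10 p of 2.51, and the rest had 3 reads and 2.44. None of the 4046 had a q of at most 0.05, which 10 of the 801169 had. Of the 3087 wide peaks with a day 5 peak, 439 had at most 2 reads there, 1282 had 3, 866 had 4, 339 had 5 and 161 had 6 or more.

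The share also differed with the control background at the wide peak, though not in 1 direction throughout. It was 47.1% (43.4 to 50.7) for the 714 wide peaks with a background of at most 2 reads and 50.1% (48.2 to 52.0) for the 2676 with over 2 and up to 3. It was 48.2% (46.1 to 50.3) for the 2149 with over 3 and up to 5 and 38.7% (35.5 to 42.0) for the 852 with over 5 and up to 10. It was 24.1% (18.1 to 31.2) for the 162 with over 10 and up to 20, and 5 of the 9 with over 20 (55.6%, 26.7 to 81.1) had a day 5 peak. Narrower day 0 peaks in these classes, from low to high background, had 19.04%, 23.3%, 21.2%, 16.7%, 8.44% and 27.1%. The density ratio against the flanks was 1.95 (1.75 to 2.17) at a background of at most 2 reads. It was 1.60 (1.52 to 1.69) at over 2 and up to 3, and 1.55 (1.46 to 1.64) at over 3 and up to 5. It was 1.42 (1.27 to 1.58) at over 5 and up to 10, and 1.32 (0.955 to 1.80) at over 10 and up to 20. The ratio thus fell at each step up to 20 reads, and was 2.07 (0.686 to 5.26) in the 9 peaks over 20. The input library is labelled for both days, and its part in these shares was not tested.

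By chromosome, the density of day 5 summits was higher inside wide peaks than beside them in 19 of 19, and the lower bound of the ratio was above 1 in 16. The ratio ran from 1.12 (0.815 to 1.51) on chromosome 1 to 1.92 (1.39 to 2.60) on chromosome 14, with overlapping intervals, and was 1.61 (1.49 to 1.74) on chromosome 15. The share of wide peaks with a day 5 peak was 52.0% (49.2 to 54.9) on chromosome 15, 36.4% (31.2 to 42.0) on chromosome 7 and 34.2% (26.3 to 43.0) on chromosome 18. The other day 0 peaks of the same chromosomes had 27.6%, 11.6% and 18.0%.

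A few wide peaks carried a higher day 5 signal. In chr11:69578860-69579819, 59 reads at day 0 over a background of 7.25 met a day 5 peak of 9 reads with a −log10 p of 7.54, the highest over any wide peak. In chr15:23527373-23528385 the day 0 pile-up was 10 reads, and 4 day 5 peaks were listed across it with up to 8 reads and a −log10 p of 7.36. The next 2 were chr15:71412273-71413011, with 9 day 0 and 6 day 5 reads, and chr15:78526225-78526934, with 17 and 7. In chr2:180665161-180666094 there were 10 and 7 reads. Of these 5 regions, 1 had a −log10 q of at least 5 at day 0.

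Day 5 pile-ups of at least 10 reads were found at 4 wide peaks, and all 4 lay near the start of chromosome 11, where the control was high as well. These regions were picked for their background of over 20 reads after their values were seen. In chr11:3096062-3097006 the day 0 pile-up was 99 reads over a background of 71.6, a fold of 1.38, and the day 5 pile-up was 32 reads. In all, 6 of the 9 wide peaks with such a background lay between 3044632 and 3097006 on chromosome 11, with folds of 1.27 to 1.55. The tallest wide peak of all was among the 9: chr17:39980903-39983152 held 314 reads over a background of 222.9, a fold of 1.41, with no day 5 peak listed.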

How the data were processed

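PATZ1 ChIP-seq in 10T1/2 cells gave 1 list of peaks and 1 of summits per day. Reads were single-end, per the labels' protocols. The submitters' processing notes name as tools Bowtie2 and HOMER, and as builds GRCm38, mm10 and mm9, with no role for any. Which program called the peaks is not stated there or in the labels. The deposited score is 10 times the −log10 p, the deposited fold is a ratio over local background, and −log10 p and −log10 q are the authors' deposited values, used to describe and rank peaks within a list. Peaks ran beyond the mm10 length on 9 of 19 chromosomes and beyond the mm9 length on 0. The gene and promoter tables at hand are of GRCm38, so genes and sequences are not analysed here.

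Reads and background at each summit were solved from fold and −log10 p as a Poisson tail (relative tolerance 0.0001, 0 peaks unsolved), which was tested on simulated data, as were gaps and density ratios. The fold was taken as the ratio of reads to background after a single read was added to each, so it is not their plain quotient. Gaps run from edge to edge. Density ratios have exact conditional binomial intervals, and densities have exact Poisson intervals. Regions named are the 10 widest, the 10 with the highest −log10 p, the 5 closest pairs, the group with most members linked by gaps of at most 50 kb and the 5 with the highest day 5 −log10 p, plus those said to be picked later. The other 4 groups described were added after their values were seen. The regions, lists and alternatives were chosen with earlier results of these data known. No column was left unmapped. The work used scipy 1.17.1, numpy 2.4.6, matplotlib 3.10.9 and pandas 2.3.3 under Python 3.11.15.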

Additional observations from a re-analysis of the deposited data

Results flagged for a closer look

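Chromosome X is outside the regions described. It held 15 day 0 peaks of at least 700 bp among its 2835 (0.529%, 95% Wilson interval 0.321 to 0.871), which is a signal in data that no comparison used. The 15 on chromosome X were 714 to 1065 bp wide with 8 to 67 reads at the summit, and 3 had a −log10 q of at least 5.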

How the results depend on the processing

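No paired analysis was possible because each day has 1 library. Of 21 alternatives, 7 stayed within the interval of the reported value (for the count, within 1.5 times) and 14 did not. With a width limit of 1000 bp there were 1221 wide peaks, 57.7% with a day 5 peak, 29.1% with another wide peak within 50 kb and 56.2% with a summit between 25% and 75% of the interval. With a −log10 q of at least 5 there were 363, with 15.2% within 50 kb of another such peak and 78.0% with a central summit. Their density ratio was 1.79, and its interval (1.55 to 2.07) holds the reported 1.58. Both the 1000 bp limit and the q limit leave fewer wide peaks to lie near. Without chromosome 15, 53.6% had a wide peak within 50 kb. With day 5 peaks of −log10 p of at least 2, 34.7% were overlapped (14.4% of other day 0 peaks), and with day 5 summits within 150 bp of the day 0 summit 17.5% were. Flanks of 20 kb gave a density ratio of 1.64 (1.79 for other day 0 peaks). With day 5 peaks of −log10 p of at least 2 it was 1.62 (1.70 for other day 0 peaks, whose flanks hold no day 0 peak). Within 10 kb, 25.8% had another wide peak (11.0% of other day 0 peaks), and 23.6% had the summit in the central 20% of the interval (36.3% of other day 0 peaks). These last settings change the quantity itself. Day 5 peaks over wide peaks had a median of 3 reads, which limits their precision, and with 1 library per day no difference could be set against replicate spread.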
